A study of Canis lupus familiaris with 77 samples.

Results

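Skeletal muscle, sampled as quadriceps, was compared with every non-cardiac tissue of a dog miRNA atlas. Members were chosen by tissue label alone. The 5 libraries labelled as quadriceps muscle formed the skeletal muscle group, and the 66 libraries of 14 other tissues formed the non-cardiac group, out of 76 libraries in all. The remaining 5 libraries were heart, the other striated muscle. They are given beside the results for reference and entered the edgeR fit, but were not part of the comparison. All libraries came from untreated, unmodified male beagle dogs of about 10 months of age. The dogs had been perfused with saline before the organs were taken. The paper states that the tissues were harvested from 5 dogs, so libraries of different tissues can come from the same dog. The tests treated all libraries as independent. The non-cardiac tissues were liver, kidney, lung, pancreas, thymus, testis, brain, sciatic nerve, duodenum, jejunum, ileum, colon, bone marrow and plasma. There were 5 libraries of each except colon, with 4, and sciatic nerve, with 2 that may share a pool. The labels gave no dog number, so libraries were not paired, and p-values measure the spread between libraries. The edgeR fit took that spread from the 76 libraries of all tissues together, not from the skeletal muscle libraries alone. Its p-values and standard errors can therefore be small even where the skeletal muscle libraries differ widely from each other. Each tissue is a bulk sample, in which fewer cells of a type and less RNA per cell cannot be told apart.

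MicroRNAs (miRNAs) are short RNAs that lower the translation and stability of mRNAs with matching sites. A small set, the myomiRs, is made almost wholly in striated muscle: miR-1 and miR-133 in both heart and skeletal muscle, miR-206 in skeletal muscle, and miR-208a, miR-208b and miR-499 from within the genes of the myosin heavy chains, the motor proteins of the sarcomere. miR-1 and miR-206 share a seed and favour differentiation of myoblasts, miR-133 is tied to their proliferation, and the myosin miRNAs take part in setting the slow fibre type. In the dog RefSeq annotation of another assembly (UU_Cfam_GSD_1.0), the genes of miR-1 and miR-133 stood next to each other at 2 loci, the genes of miR-133b and miR-206 were adjacent, and the genes of miR-208a, miR-208b and miR-499 lay inside MYH6, MYH7 and MYH7B.

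Levels are given in RPM, the reads of a miRNA scaled to a common total of miRNA reads per library (reads per 1000000). The skeletal muscle libraries held 1424768, 426509, 1705490, 220445 and 315775 miRNA reads in replicates 1 to 5, and the non-cardiac libraries held from 157871 to 6684616. A count of 3 reads, which is the limit that a count of 0 allows, equalled 1.76 RPM in the deepest skeletal muscle library and 13.6 RPM in the shallowest, replicate 4. Such limits, and the intervals given with shares, describe counting error alone.

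Skeletal muscle replicate 4 went against its tissue label. Replicate numbers follow the order of the samples and are not in the labels. The summed share of myomiR reads was 6.36% in replicate 1, 11.7% in replicate 2, 10.8% in replicate 3 and 3.92% in replicate 5, but 0.0735% in replicate 4, where 162 of 220445 reads gave a 95% Wilson interval of 0.0630% to 0.0857%. The value of replicate 4 lay inside the range of the non-cardiac libraries, 0.00224% to 0.202% with a median of 0.0209%, and far below the heart libraries, 4.43% to 11.3%. The share was 6.57% ± 4.83 (SD, n = 5) with this library and 8.19% ± 3.68 (SD, n = 4) without it. As a description over miRNAs, which also carries differences in depth, replicate 4 had its highest mean Spearman correlation with the 2 sciatic nerve libraries (0.849), then with thymus (0.799) and with the other skeletal muscle libraries (0.791). Closeness to sciatic nerve was not particular to replicate 4. Replicate 1 also correlated most with it (0.871, against 0.864 with the other skeletal muscle libraries), and replicate 3 had 0.868 against 0.863. Summed levels of other lists also moved with replicate 4. The DLK1-DIO3 cluster reached 21189 RPM against 1659 to 5583 RPM in the other replicates. The miR-17-92 family was at 16172 against 2179 to 6452 RPM, and the leukocyte list at 1415 against 253 to 771 RPM. What replicate 4 contains was not tested. Results below use all 5 libraries, and the main counts are also given without replicate 4, a choice made after its values were seen. The number of tissues a named miRNA was called against changed by 1 without it for miR-10b (11), miR-22 (13), miR-196a (10), miR-196b (8) and miR-141 (11), among others.

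In 4 of the 5 libraries most myomiRs were far above every non-cardiac library. miR-133a, the most abundant of them, was at 58238, 108830, 98820, 676 and 36539 RPM in replicates 1 to 5, against a median of 167.6 RPM and a highest value of 1917 RPM, in a sciatic nerve library, over the 66 non-cardiac libraries. Replicates 1, 2, 3 and 5 lay above every non-cardiac library, and replicate 4 lay within their range. The mean was 219.35-fold the non-cardiac mean, and 274-fold without replicate 4. The edgeR log2 fold change against the equally weighted mean of the 14 tissues was 9.09 ± 0.43 (SE, adjusted p = 2.4e-29), and 9.30 ± 0.38 without replicate 4. By tissue median the order was heart (80340 RPM), skeletal muscle (58238 RPM), sciatic nerve (1011 RPM) and colon (870 RPM). The sciatic nerve libraries were at 105 and 1917 RPM. The heart libraries ran from 37107 to 96251 RPM, a range that overlapped the 4 skeletal muscle libraries.

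**Figure D1:**
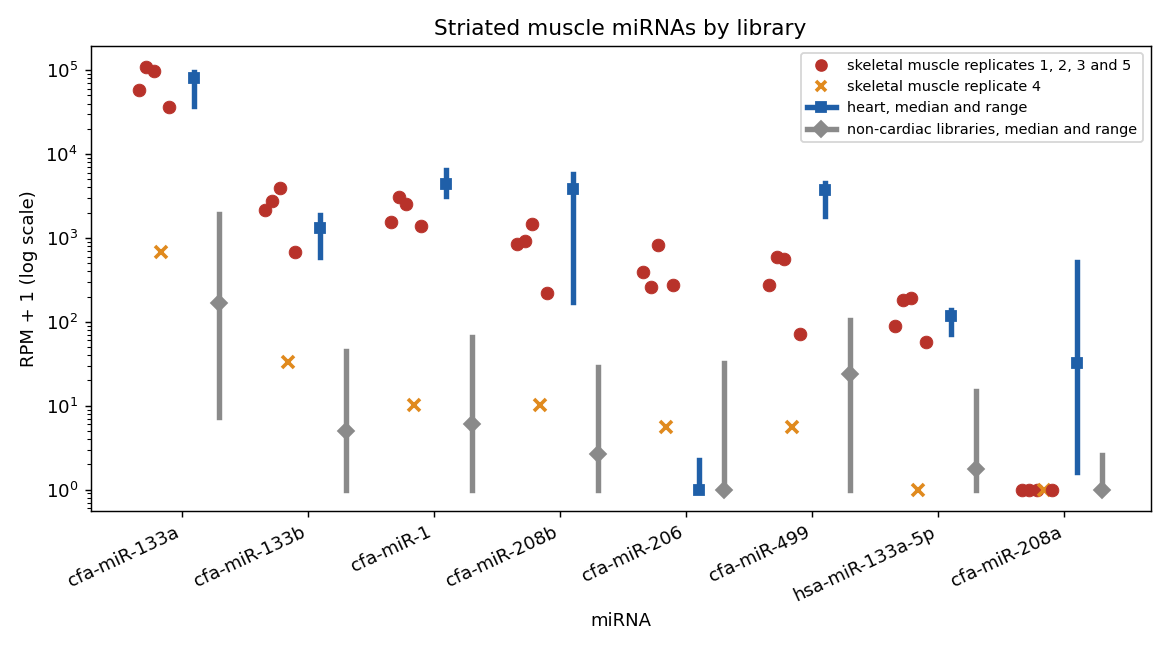
Level of 8 striated muscle miRNAs in RPM plus 1, on a log axis. Circles are skeletal muscle replicates 1, 2, 3 and 5, crosses are replicate 4, and bars with a square or diamond are the range and median of the 5 heart and the 66 non-cardiac libraries. Replicate 4 sits inside the non-cardiac range, as with miR-133a at 676 RPM, while the other 4 replicates sit above it except for miR-499, where replicate 5 is inside it, and miR-208a, which had no read in muscle.

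miR-1, the other main differentiation miRNA of striated muscle, was at 1535, 3055, 2525, 9.07 and 1390 RPM, where the 9.07 RPM of replicate 4 stands for 2 reads. Its non-cardiac libraries had a median of 5.04 RPM and reached 65.4 RPM in colon. The mean was 191.99-fold the non-cardiac mean with all 5 libraries and 240-fold without replicate 4. The heart libraries were higher, from 3165 to 6365 RPM, and did not overlap skeletal muscle. In 3 tissues no library had more than 3 reads of miR-1, so its fitted fold change, like those of miR-133b, miR-206 and miR-208b, depends on the prior count and is not quoted. All 4 were called higher by edgeR, with adjusted p-values of 8.0e-29 for miR-1, 9.7e-29 for miR-133b, 1.8e-25 for miR-206 and 7.7e-33 for miR-208b.

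miR-206 is the myomiR known for skeletal muscle alone, where it accompanies regeneration. It was at 395, 258, 817, 4.54 and 276 RPM in replicates 1 to 5, with a single read in replicate 4. Of the 66 non-cardiac libraries 14 had any read of it, and the highest, a sciatic nerve library, was at 30.9 RPM. Replicates 1, 2, 3 and 5 lay above every non-cardiac library, and the median of all 5 was 8.92-fold the highest of them (10.9-fold without replicate 4). Heart had a median of 0 RPM and a highest value of 1.24 RPM, unlike its levels of miR-1, miR-133a and miR-133b. By median, sciatic nerve was also the tissue nearest to skeletal muscle, at 15.4 RPM over 2 libraries. That median rests on the library at 30.9 RPM.

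miR-133b, transcribed beside miR-206, was at 2176, 2764, 3931, 31.8 and 684 RPM. The non-cardiac median was 3.94 RPM and the highest non-cardiac library, again sciatic nerve, was at 44.3 RPM. Its mean was 254-fold the non-cardiac mean, or 316-fold without replicate 4. Unlike miR-206 it was abundant in heart too, with a median of 1310 RPM.

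The myosin-encoded miRNAs differed among themselves. miR-208b, which lies within the gene of the slow myosin MYH7, was at 835, 910, 1459, 9.07 and 221.7 RPM, against at most 27.9 RPM in any non-cardiac library, a testis library. miR-499, within MYH7B, was at 272, 593, 553, 4.54 and 69.7 RPM against a non-cardiac median of 22.7 RPM and a highest value of 104 RPM in plasma. For miR-499, replicate 5 as well as replicate 4 lay inside the non-cardiac range. Its log2 fold change was 4.53 ± 0.26 (SE, adjusted p = 8.7e-25), and 4.70 ± 0.23 without replicate 4. miR-208a, within the cardiac myosin gene MYH6, had no read in any skeletal muscle library, while heart had a median of 30.9 RPM and a highest value of 522 RPM. The heart medians of miR-208b (3829 RPM) and miR-499 (3752 RPM) exceeded those of skeletal muscle.

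The minor arms of these hairpins followed at far lower levels. miR-133a-5p was at 88.4, 183, 190, 0 and 57.0 RPM, against at most 13.8 RPM in a non-cardiac library. miR-1-5p was at 4.91, 2.34, 11.1, 0 and 3.17 RPM, and no non-cardiac library had more than 2 reads of it. Of the 13 detected members of the striated muscle list, 10 passed the filter on low counts and were tested, and 9 of these were called higher. miR-208a was the tested member that was not. miR-1-5p passed the filter only through striated muscle libraries, heart included, so its call was largely set in advance. The counts were the same without replicate 4, beside 23.3% of all tested miRNAs called higher with all libraries and 20.5% without it. DESeq2 called 8 of the 10 higher, beside 21.7% of all tested.

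A second set of abundant miRNAs was shared with other tissues but higher in skeletal muscle. miR-378, made from within PPARGC1B, a coactivator gene of mitochondrial metabolism, was at 58018, 123400, 68457, 5462 and 43898 RPM. Its non-cardiac median was 8835 RPM, and single thymus libraries reached 73560 RPM, so the groups overlapped. Its log2 fold change was 3.94 ± 0.26 (SE, adjusted p = 1.9e-21), and skeletal muscle was called higher than each of the 14 tissues, most narrowly thymus (log2 fold change 1.35, adjusted p = 0.039). miR-378a-5p, from the other arm of the same hairpin, was at 469, 635, 539.4, 9.07 and 488 RPM against at most 279 RPM in a non-cardiac library. Replicates 1, 2, 3 and 5 of this minor arm lay above every non-cardiac library, while of the major arm 1 replicate did.

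miR-486, carried within the ankyrin gene ANK1 and abundant in both muscle and red cells, was at 79475, 52475, 45620, 167330 and 105990 RPM. Plasma was far higher, with a median of 579250 RPM, and heart was at 113430 RPM. Skeletal muscle was called higher than 10 tissues and lower than plasma, with a log2 fold change of 3.17 ± 0.36 (SE, adjusted p = 1.9e-11). Replicate 4 was the highest muscle library for miR-486, and without it the log2 fold change was 3.04 ± 0.40. The mean of skeletal muscle was only 1.38-fold the non-cardiac mean, and 1.08-fold without replicate 4. For miR-486 the adjusted p of the exact rank-sum test was 0.044 with replicate 4 and 0.11 without it. The other 3 tested red cell miRNAs were not called. miR-451, the defining one, was at 3996, 1008, 2822, 4550 and 453 RPM, and its log2 fold change of 0.45 did not pass the test (adjusted p = 0.40). The part of red cells in the miR-486 value was not tested. miR-22, present in every tissue, was at 59377, 138290, 90067, 24079 and 35551 RPM and was called higher than 12 tissues, with a log2 fold change of 2.28 ± 0.19 (SE, adjusted p = 8.3e-17). Liver, with a median of 122630 RPM, was the one non-cardiac tissue with a median above that of skeletal muscle.

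The miRNAs that lie among the HOX genes, which give cells their position along the body axis, were the third group. miR-10b, between HOXD8 and HOXD3, was the most abundant miRNA of all 5 libraries, at 416860, 276790, 315840, 423910 and 583470 RPM. It made up 40.3% ± 11.9 (SD, n = 5) of the miRNA reads, against a median of 4.15% and a range of 0.0851% to 54.8% in the non-cardiac libraries. Replicate 4 did not stand apart here. By median the order was kidney (445640 RPM), skeletal muscle (416860 RPM), testis (381150 RPM) and bone marrow (319240 RPM), while heart was at 78768 RPM and brain at 1828 RPM. The difference from kidney was not detectable (log2 fold change 0.07, adjusted p = 0.99), and overall miR-10b was called higher than in 12 tissues with a log2 fold change of 3.92 ± 0.28 (SE, adjusted p = 7.0e-20). miR-10a, the paralogue that differs in one base, was at 16884 to 33296 RPM and was not called, with a log2 fold change of 0.77 ± 0.43 (SE, adjusted p = 0.14).

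miR-196a was at 221.1, 96.1, 284, 331 and 162 RPM and miR-196b at 184, 68.0, 296, 467 and 76.0 RPM. Both split the other tissues into high and low ones. miR-196a had medians of 473 RPM in kidney, 465 RPM in sciatic nerve, 372 RPM in ileum and 217.1 RPM in colon, but 0 RPM in brain, plasma, lung and pancreas and 1.43 RPM in heart. The mean of skeletal muscle was therefore only 1.92-fold the non-cardiac mean for miR-196a and 1.56-fold for miR-196b, although edgeR called both higher (adjusted p = 1.3e-23 and 1.7e-16), each against 9 tissues. This split of tissues was not tested.

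**Figure D2:**
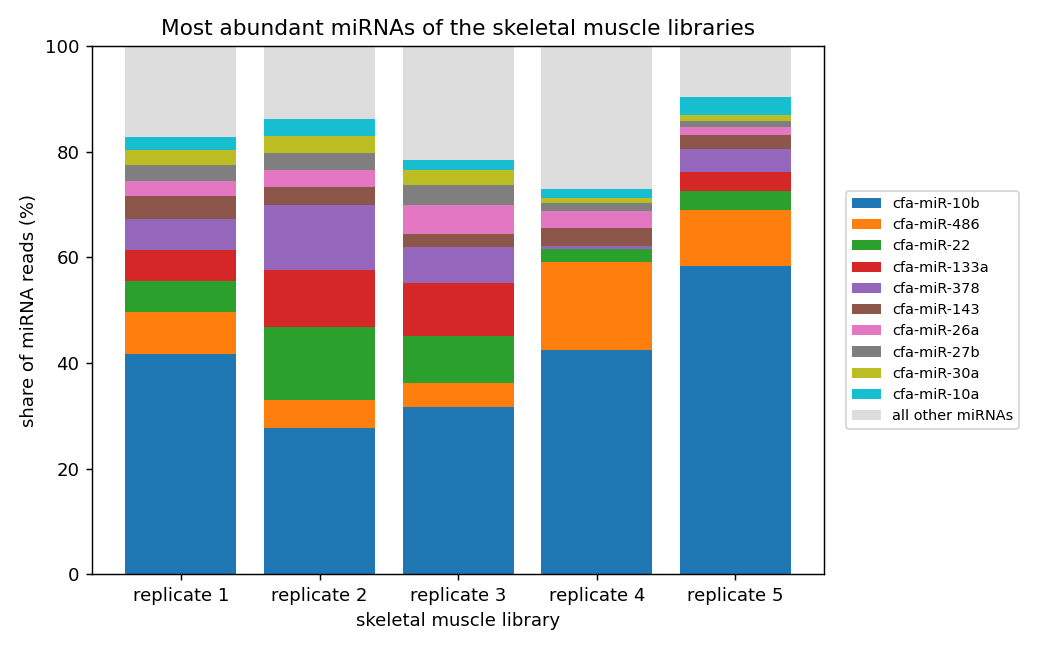
Share of miRNA reads in percent for each of the 5 skeletal muscle libraries, stacked over the 10 miRNAs with the highest median there, with all others in grey. miR-10b is the largest block in each library, and miR-133a and miR-378 are nearly absent from replicate 4.

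Together the 10 most abundant miRNAs took 82.7%, 86.1%, 78.4%, 72.9% and 90.3% of the reads in replicates 1 to 5. Besides those described, they were miR-143 (median 33744 RPM), miR-26a (31258 RPM), miR-27b (29163 RPM) and miR-30a (28240 RPM). miR-143, the smooth muscle miRNA, was not called under TMM scaling (log2 fold change -0.17 ± 0.37, adjusted p = 0.87), but its mean was 0.291-fold the non-cardiac mean and library-size scaling gave -0.88 (adjusted p = 0.028). Its highest tissue median was in colon, at 352130 RPM. miR-27b and miR-30a were each called at a log2 fold change of 1.01, at the limit set for a call, and under library-size scaling neither was called (0.33, adjusted p = 0.15, and 0.25, adjusted p = 0.41).

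Across all miRNAs, 650 were detected and 480 passed the filter on low counts. A miRNA was called when its adjusted p was below 0.05 and its log2 fold change beyond 1 in either direction. By this rule 112 were higher in skeletal muscle (23.3%) and 68 were lower (14.2%), 37.5% in all, and 44.2% passed on the adjusted p alone. Without replicate 4 the counts were 98 higher (20.5%) and 76 lower (15.9%) of 478 tested, 36.4% in all, with 41.2% on the adjusted p alone. Of the 112 and the 68, 97 and 64 were called again without replicate 4. The balance of directions rested on the scaling. TMM, which sets libraries to a common level over most miRNAs, gave muscle factors from 0.344 to 1.13, and 62.2% of calls were higher. Scaling by total miRNA reads alone gave 78 higher (16.2% of those tested) and 25.4% lower, so that 39.0% of calls were higher, and moved the median log2 fold change of all tested miRNAs from -0.23 to -0.69. Of the 112 higher calls 78, and of the 68 lower calls all 68, were called in the same direction under that scaling. Of the 112 higher calls, 37 had a skeletal muscle median above 100 RPM and 46 a median of 10 RPM or less.

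**Figure D3:**
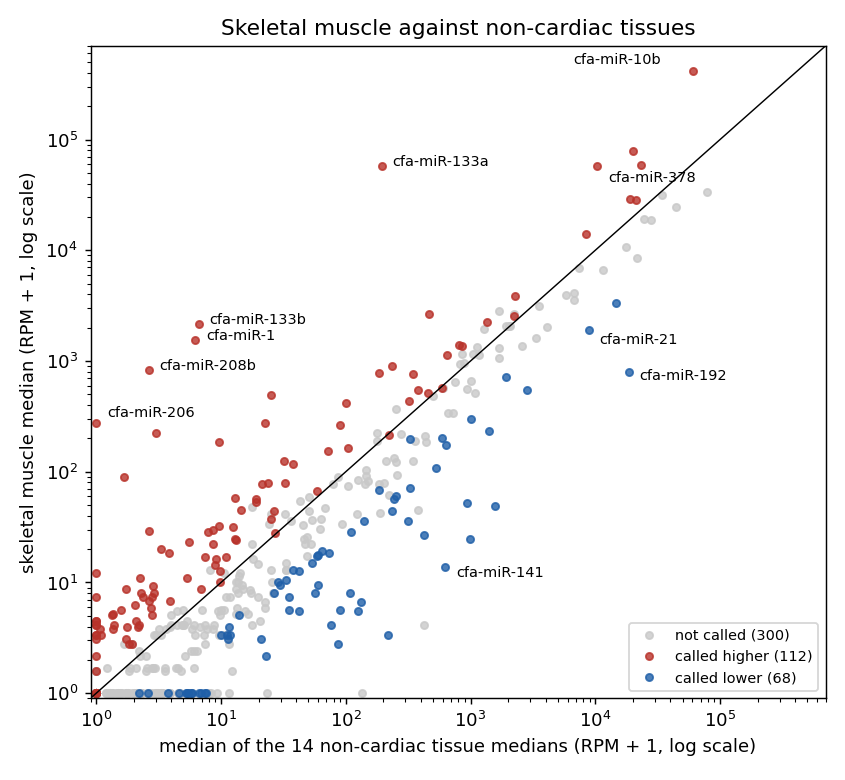
Median level of each tested miRNA in skeletal muscle against the median of the 14 non-cardiac tissue medians, both in RPM plus 1 on log axes. The line marks equal levels. Red points were called higher (112), blue points lower (68) and grey points were not called (300), and miR-133a, miR-133b, miR-1, miR-208b and miR-206 lie farthest above the line.

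Higher than in each of the 14 tissues taken singly were 13 miRNAs (2.71% of those tested). Of these, 7 came from the myomiR hairpins, namely miR-1, miR-1-5p, miR-133a, miR-133a-5p, miR-133b, miR-206 and miR-208b, and miR-499 was the eighth. The others were miR-378, miR-378a-5p, miR-29c-5p, miR-489 and miR-3656. miR-29c-5p had a median of 31.7 RPM in skeletal muscle, below its highest non-cardiac library at 124.7 RPM. miR-489, a miRNA of quiescent muscle stem cells that lies inside CALCR, was at 3.51, 9.38, 9.38, 0 and 3.17 RPM and had a highest non-cardiac value of 4.18 RPM in bone marrow, so it was near the limit of detection. miR-3656 was highest in replicate 4, at 22.7 RPM, and was not tested without it, while the other 12 (2.51%) were called again in that case. No non-cardiac library had more than 3 reads of miR-3656 or 2 reads of miR-1-5p. These and miR-489 passed the filter on low counts only through striated muscle libraries, so their calls were largely set in advance. DESeq2 and library-size scaling each gave 9 miRNAs (1.88%) higher than in each tissue. No miRNA was lower in skeletal muscle than in each of the 14 tissues by edgeR or by DESeq2, and 1 was at an unadjusted edgeR p below 0.05. When all muscle libraries were required to lie above all 66 non-cardiac libraries, 0 miRNAs met the rule with replicate 4 and 8 (1.23%) met it without, and 0 lay below in either case.

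Tissue enrichment was also called by a separate rule, with a mean more than 5-fold the mean of the 66 libraries, a median above 100 RPM and an adjusted p below 0.05 in a two-sided exact rank-sum test. It was met by 6 miRNAs (0.923% of those detected), which were miR-1, miR-133a, miR-133b, miR-206, miR-208b and miR-378a-5p. Without replicate 4 it was met by 9 (1.38%), as miR-378, miR-499 and miR-133a-5p were added. By the adjusted p of that test alone, 22 miRNAs had a higher mean (3.38%) and 93 a lower mean (14.3%), and without replicate 4 these were 22 (3.38%) and 77 (11.8%). For miR-499 the adjusted p of the exact rank-sum test was 0.094 with replicate 4 and 0.00028 without it.

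The lower side was led by epithelial miRNAs. miR-141 and miR-200a, of the family that keeps cells epithelial, were near the limit of detection in skeletal muscle. miR-141 was at 8.42, 16.4, 12.9, 18.1 and 6.33 RPM against a non-cardiac median of 905 RPM and 16612 RPM in pancreas. Its log2 fold change was -5.41 ± 1.14 (SE, adjusted p = 7.6e-05). It was lower than in 12 of the 14 tissues, and brain, with a median of 8.81 RPM, was below skeletal muscle. miR-200a-3p was at 0.702, 0, 2.35, 4.54 and 9.50 RPM against a non-cardiac median of 252 RPM, and was called lower in 12 tissues.

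miR-192 and miR-194, which share a precursor and mark gut, liver and kidney, were lower by a log2 fold change of -4.03 each, with SE 0.53 for miR-192 and 0.60 for miR-194. miR-192 was at 649, 844, 787, 894 and 504 RPM, below the median of every one of the 14 tissues, which ran from 1346 RPM in sciatic nerve to 302240 RPM in jejunum. Of the 66 non-cardiac libraries 1, at 649 RPM, lay below the highest muscle library. Replicate 4 did not stand apart in these miRNAs. miR-203, an epidermal miRNA, was at 0 to 7.04 RPM against a non-cardiac median of 124.7 RPM (log2 fold change -4.37 ± 0.75, adjusted p = 1.6e-06).

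The sensory epithelium cluster gave similar values. miR-182 was at 48.4, 35.2, 51.0, 99.8 and 38.0 RPM against a non-cardiac median of 1147 RPM, and miR-183 at 0 to 13.6 RPM against 105.9 RPM. Both had high medians in the 2 sciatic nerve libraries, at 5835 RPM for miR-182 and 841 RPM for miR-183. miR-31 was at 4.69 to 18.1 RPM in skeletal muscle against 116 RPM, with a log2 fold change of -3.27 ± 0.59 (SE, adjusted p = 5.0e-06), and heart was higher than skeletal muscle, at 249 RPM. miR-375, the islet and endocrine miRNA, was at 17.5, 23.4, 10.6, 250 and 244 RPM, which split the muscle libraries, and its log2 fold change was -1.95 ± 0.65 (SE, adjusted p = 0.010). Without replicate 5 it was -3.35. For miR-375, skeletal muscle was called lower than 8 tissues and higher than bone marrow, brain and kidney. The adjusted p of the exact rank-sum test for miR-375 was 0.13.

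miR-21, which is widely expressed and induced by injury and growth, was at 1906, 1151, 2171, 1951 and 434 RPM against a non-cardiac median of 15573 RPM. Skeletal muscle lay below the median of each of the 14 tissues, the lowest being brain at 2739 RPM, and was called lower than 12 of them (log2 fold change -2.47 ± 0.38, adjusted p = 1.5e-07). Sciatic nerve (log2 fold change -0.08) and brain (0.75, adjusted p = 0.11) were the 2 tissues not called, and heart had a median of 1647 RPM.

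Of the leukocyte miRNAs 7 of 10 tested were called lower, beside 14.2% of all tested miRNAs. miR-142, made in all leukocytes, was at 341.8, 201.6, 317, 231 and 69.7 RPM against a non-cardiac median of 2111 RPM and 22440 RPM in plasma. Its log2 fold change was -2.27 ± 0.54 (SE, adjusted p = 3.7e-04). Skeletal muscle was called lower than 9 tissues for miR-142 and higher than brain and testis. The adjusted p of the exact rank-sum test for miR-142 was 0.13. miR-146a, a brake on inflammatory signalling, was at 27.4, 16.4, 66.3, 259 and 50.7 RPM against 932 RPM (log2 fold change -3.24 ± 0.51, adjusted p = 2.7e-07). Replicate 4 was the highest muscle library for miR-146a, and without it the log2 fold change was -3.89 ± 0.60.

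**Figure D4:**
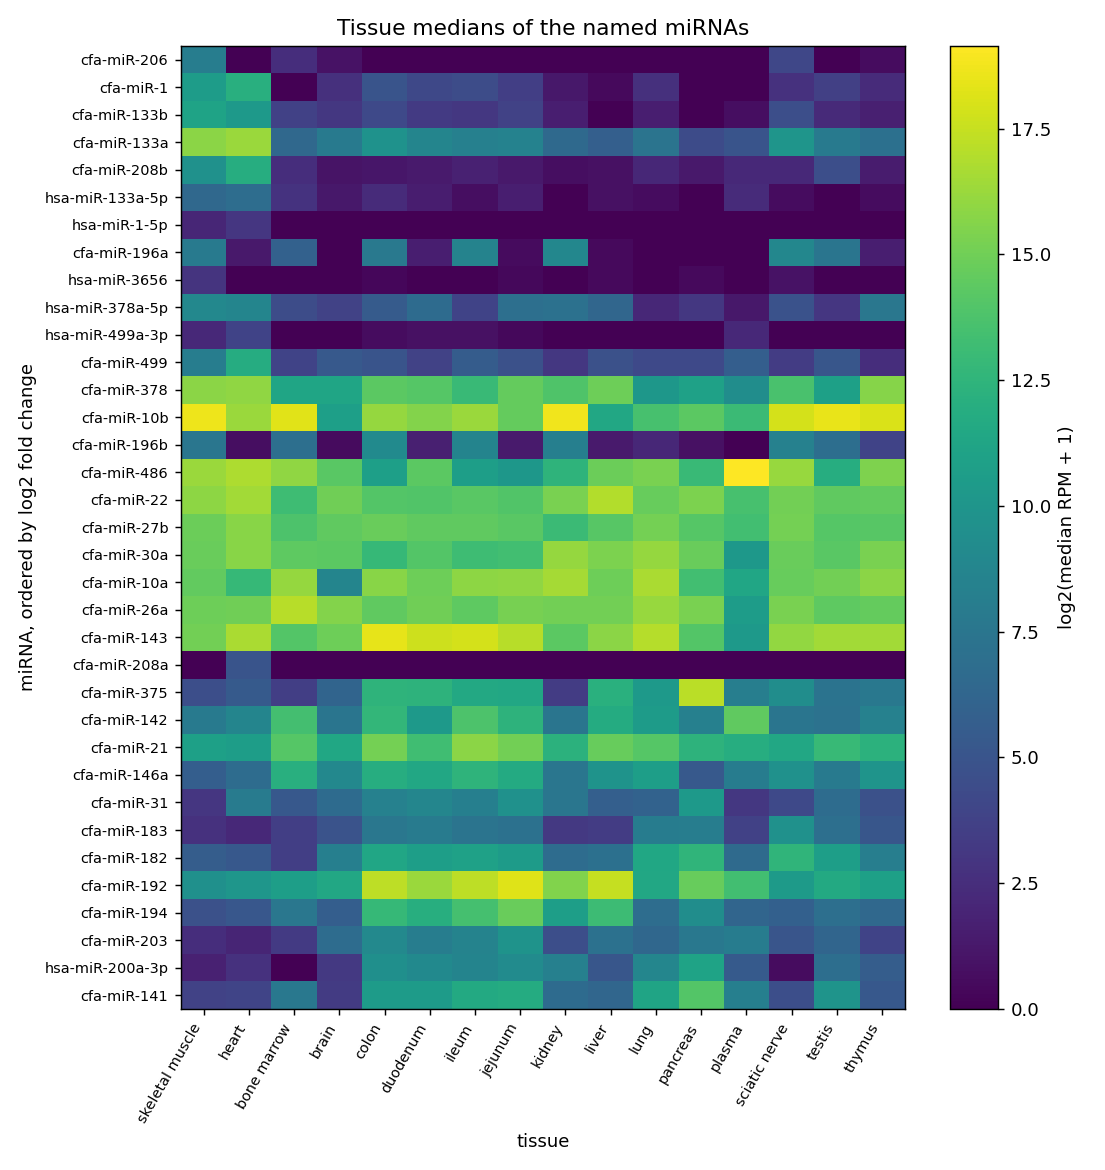
Tissue medians of the 35 tested miRNAs named by the rule, as log2 of the median RPM plus 1, with skeletal muscle and heart in the first columns and the 14 non-cardiac tissues after them. Rows are ordered by log2 fold change, and in each of the top rows from miR-206 to miR-208b skeletal muscle is brighter than every non-cardiac column.

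Groups of miRNAs by cell type or role showed where the calls fell. Of 16 tested epithelial miRNAs 8 were called lower and 0 higher, and of 10 leukocyte miRNAs 7 were lower and 0 higher, against 14.2% lower among all tested. Without replicate 4 these were 8 of 16 and 8 of 10, against 15.9%. DESeq2 called 13 of the 16 epithelial and 7 of the 10 leukocyte miRNAs lower, beside 14.2% of all tested. The summed epithelial level was 710 to 1275 RPM in the 5 libraries and had a non-cardiac median of 35315 RPM. The miR-17-92 family and its relatives, which are high in dividing cells, had 9 of 21 lower and 0 higher. They had 10 of 21 lower without replicate 4, and 8 of 21 lower by DESeq2 with all libraries. Their most abundant members, miR-92a (4156 RPM on average) and miR-25 (1716 RPM), were not called, though miR-25 was called lower without replicate 4. Of 21 neuronal miRNAs 4 were lower and 1 was higher by edgeR, and 5 were lower and 0 higher by DESeq2. The summed level of the neuronal list was 291 to 909 RPM in muscle libraries against a non-cardiac median of 537 RPM. Of the 6 tested miRNAs of myelinating glia 0 were called by edgeR or DESeq2, and 1 was lower at an unadjusted edgeR p below 0.05.

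Among the miRNAs that the muscle literature links to myogenesis and wasting, 16 of 38 were called higher and 6 lower, with replicate 4 or without it, beside 23.3% higher and 14.2% lower among all tested miRNAs. The lower count is near that background. The higher ones included miR-486, miR-378 and its arms, miR-27b and miR-489, described above. miR-31, which holds back the myogenic factor MYF5, was among the lower ones. miR-221 and miR-222, which fall as myoblasts differentiate, were at 237 and 149 RPM on average against 929 and 687 RPM, with log2 fold changes of -1.30 (adjusted p = 0.0028) and -1.52 (adjusted p = 1.9e-04), and were named here after their values were seen. miR-181a, the most abundant member of the list outside muscle after miR-486, was not called (log2 fold change -0.29, adjusted p = 0.48).

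Connective tissue and vessel miRNAs were present. All 5 fibroblast list members were called higher, beside 23.3% of all tested miRNAs, and 4 of 5 without replicate 4, beside 20.5%, where miR-199, its most abundant member, was no longer called. Before TMM scaling the median difference of the list in mean log2(RPM + 1) was 0.0032, and -0.46 without replicate 4. miR-214, a fibroblast and myogenic miRNA, was at 161, 9.38, 320, 853 and 38.0 RPM, so that replicate 4 was the highest and the muscle libraries spanned a wide range. miR-126, the endothelial miRNA, was at 15259, 24569, 13960, 8628 and 8265 RPM against a non-cardiac median of 8124 RPM (log2 fold change 1.29, adjusted p = 7.2e-06). The other tested member of its list, miR-126-3p (hsa-miR-126-3p), was not called, at 1129 RPM on average against 1629 RPM (log2 fold change 0.65). Of the 4 tested smooth muscle miRNAs 0 were called by edgeR, with replicate 4 or without it, or by DESeq2, and 0 had an unadjusted edgeR p below 0.05.

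The DLK1-DIO3 cluster, an imprinted locus whose miRNAs are active in embryonic and neural tissue, gave 32 of the 112 higher calls, from 49 tested members, with 0 lower, beside 23.3% of all tested miRNAs called higher. Without replicate 4 it gave 25 of 49, beside 20.5%. DESeq2 with all libraries called 25 of the 49 higher, beside 21.7% of all tested. Before TMM scaling the median difference of the list in mean log2(RPM + 1) was 0.094, and -0.041 without replicate 4. miR-127, the most abundant, was at 2673, 713, 2850, 15405 and 1067 RPM, and replicate 4 was far above the other muscle libraries. Its log2 fold change was 2.83 (adjusted p = 3.0e-08) with replicate 4 and 1.97 (adjusted p = 3.1e-04) without. The non-cardiac median was 353 RPM, and brain reached 54739 RPM, so the mean of skeletal muscle was 0.979-fold the non-cardiac mean although the call was higher. The contrast weights the log level of each tissue equally, which makes such a pair of values possible where a few tissues are very high. The same holds for miR-122, the liver miRNA, which averaged 11.5 RPM in skeletal muscle and 1805 RPM over the non-cardiac libraries, was called higher (adjusted p = 0.041) and was not called without replicate 4.

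**Figure D5:**
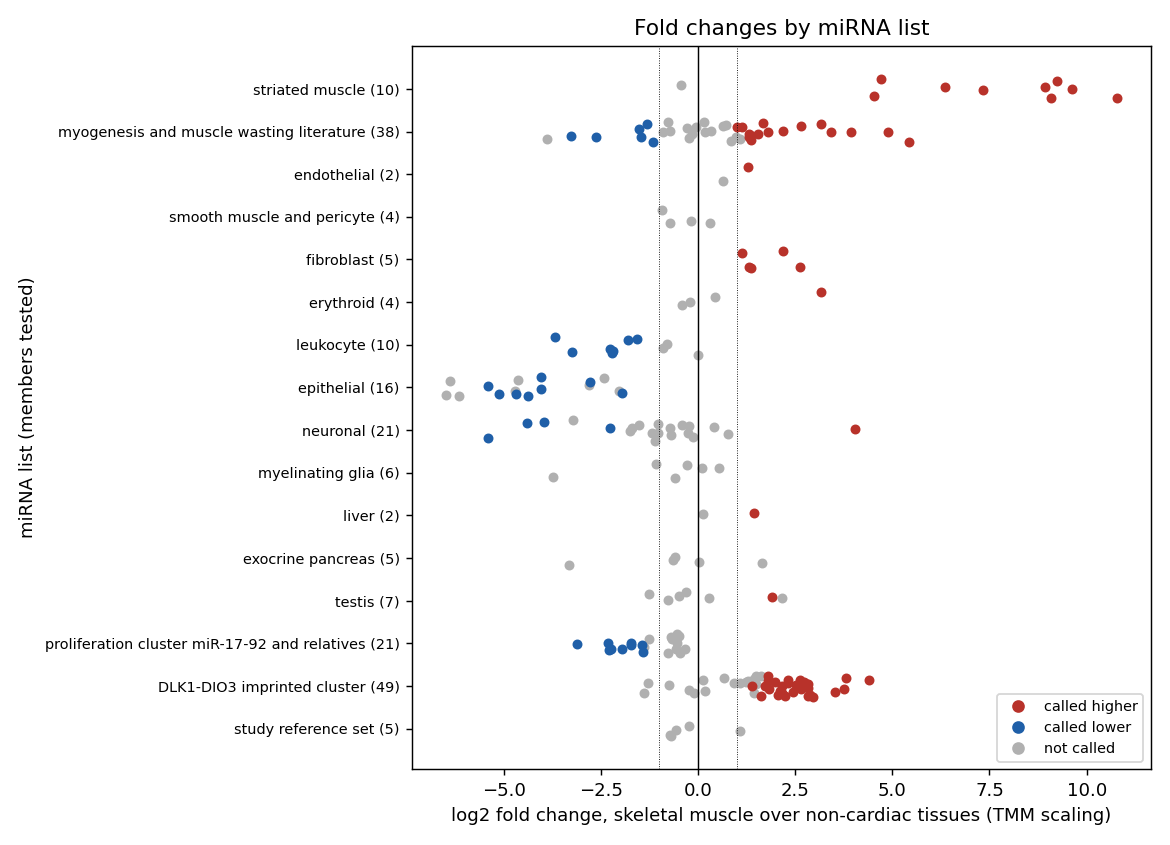
Log2 fold change of every tested member of 16 miRNA lists, skeletal muscle over the mean of the 14 non-cardiac tissues, under TMM scaling. Red was called higher, blue lower and grey not called, dotted lines mark a log2 fold change of 1 in each direction, and values of miRNAs near 0 reads in some tissues depend on the prior count. The striated muscle list lies far to the right and the epithelial list to the left.

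The remaining lists held few calls. Beside 23.3% of all tested miRNAs called higher, the red cell list had 1 of 4 higher (miR-486), the liver list 1 of 2 and the testis list 1 of 7 higher, the latter 2 calls not made without replicate 4, and the pancreas list 0 of 5 in either direction by edgeR or DESeq2, with 1 higher at an unadjusted edgeR p below 0.05. Of the reference miRNAs used in the study to set qPCR levels, miR-16, miR-29a, miR-186 and their other arms, 0 of 5 tested were called by edgeR or DESeq2, with 1 higher and 2 lower at an unadjusted edgeR p below 0.05. miR-186 was at 6640 RPM on average against 12448 RPM, with a log2 fold change of -0.23 (adjusted p = 0.36). miR-16 was at 3822 RPM against 10699 RPM (log2 fold change -0.57, adjusted p = 0.090). miR-29a was at 478 RPM against 1343 RPM and passed on the adjusted p alone (log2 fold change -0.71, adjusted p = 0.019). The median difference in mean log2 level, in log2(RPM + 1), was 2.67 for the striated muscle list, -3.60 for the epithelial list and -2.16 for the leukocyte list, but -0.012 for the myogenesis list, 0.0032 for the fibroblast list and 0.094 for the DLK1-DIO3 list, beside -0.31 for all detected miRNAs.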

How the data were processed

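The deposited values were read counts per miRNA and library. To make these counts the authors clipped adaptors, aligned reads to CanFam3.1 with OSA without mismatches, excluded reads at more than 10 locations and counted overlaps of at least 70% with dog, rat or human miRNA loci. The deposited RPM column, listed as a score here, equals counts over the authors' total of miRNA reads (largest relative difference 2.89e-09). miRNAs absent from a library were set to 0. Reads that match several miRNAs equally well could not be told apart. The table held 1 sample name that was not used, and 1 labelled colon sample is not analysed here.

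Counts were tested with edgeR 4.0.16 (quasi-likelihood, TMM, filterByExpr with a minimum count of 10, all 16 tissues in 1 fit), as skeletal muscle minus the equally weighted mean of 14 tissues and against each tissue. P-values were Benjamini-Hochberg adjusted over all tested miRNAs. SE is the log2 fold change over the square root of F. Exact rank-sum tests used RPM. DESeq2 1.42.0, other scalings, filters and sample sets, and leaving out each library were the alternatives. The tests were checked on simulated data. Skeletal muscle libraries differed from each other by far more than sampling noise (chi-square per degree of freedom 223 to 861).

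Named were all myomiRs, the 12 largest called changes per direction above 100 RPM (in skeletal muscle, or in 8 of the 14 tissues), up to 8 per direction among those beyond each tissue, the 10 most abundant, and up to 4 members of each list by abundance. miR-489, miR-29a, miR-29c-5p, miR-31, miR-214, miR-221, miR-222 and miR-330-3p where outside this rule were named after their values were seen. The members and lists were chosen with earlier results of these data known.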

Additional observations from a re-analysis of the deposited data

Results flagged for a closer look

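Of the 38 named miRNAs, 5 had a skeletal muscle library whose gap to its nearest neighbour, over the whole range of log2(RPM + 1), passed Dixon's 95% limit for 5 samples (0.71). In all 5 the library was replicate 4 and its value was the lowest. The ratio was 0.862 for miR-1 (9.07 RPM), 0.785 for miR-133a (676 RPM), 0.770 for miR-206 (4.54 RPM), 0.773 for miR-133a-5p (0 RPM) and 0.927 for miR-378a-5p (9.07 RPM). Chance flags about 1 in 20 groups, and the miRNAs are not independent of each other.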

How the results depend on the processing

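Replicate 4 of skeletal muscle, TMM scaling and the few libraries of sciatic nerve limit these results most, and depth limits miRNAs below about 13.6 RPM in replicate 4. One group of all non-cardiac libraries in place of equally weighted tissues left 22 higher calls, 5.39% of the miRNAs tested in that fit. Library-size scaling raised the lower calls to 25.4% of those tested. With no limit on level there were 13 tissue-enriched miRNAs. Without heart in the fit 8 miRNAs were higher than in each tissue. hsa-miR-330-3p, with 0 reads in all 5 muscle libraries, became the 1 miRNA lower than in each tissue under DESeq2's size factors, library-size scaling, without plasma and bone marrow and without heart. Leaving out 1 library at a time gave 85 to 117 higher (17.8% to 24.7% of those tested), 58 to 78 lower (12.1% to 16.3%), 8 to 13 higher than in each tissue (8 without sciatic nerve replicate 2), 0 to 1 lower than in each tissue (1 without brain replicate 1 or brain replicate 4), 5 to 9 tissue-enriched miRNAs and a myomiR share of 5.30% to 8.19%. The cause of these changes was not tested. Directions reversed for miR-10a under library-size scaling (log2 fold change -0.12), for miR-143 under DESeq2's size factors (0.064) and DESeq2 (0.064), and for miR-208a under DESeq2 (1.82), none of them called. Of 2723 alternative values of 35 named miRNAs, 2615 kept direction and call, 102 lost the call and 2 gained it. No paired analysis was possible because the labels carry no dog or replicate number.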
